A study of Mus musculus with 2 samples.

Results

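Gfi1b and Gfi1 are paralogous zinc finger genes, and the data describe where chromatin bound by the transcription factor Scl was enriched around each of them. The loci were chosen by gene name: 100000 bp of mouse chromosome 2 around Gfi1b (28420000 to 28520000 in build mm9) and 140000 bp of chromosome 5 around Gfi1 (108080000 to 108220000). They are 2 of the 27025 genes with a promoter sequence in the RefSeq table used here. The Gfi1b locus held 480 of the 5632119 distinct reads of sample 1 and 347 of the 4150610 of sample 2. The Gfi1 locus held 384 and 290. A distinct read is a start position and strand, counted once.

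Chromatin came from 1 immunoprecipitation against Scl (Tal1) in HPC-7, a mouse haematopoietic progenitor line derived from embryonic stem cells and grown with stem cell factor. Fixation used 0.4% formaldehyde, and shearing left pieces of between 200 and 500 bp. The DNA was divided into 3 portions: lanes 7 and 8 of one site are joined here as sample 1 (build mm9), and the portion read at another site is sample 2 (build mm8). Both samples are technical portions of the same material from a single line, and no control library was used here, so every interval and p-value covers counting error only. Enrichment was measured against other reads of the same library.

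Gfi1 and Gfi1b encode repressors that bind DNA through zinc fingers and recruit the demethylase Lsd1 and its partner CoREST through a short N-terminal domain named SNAG. Gfi1 is known for its roles in stem cells, lymphoid cells and neutrophils, and Gfi1b for its roles in red cells and megakaryocytes. Both proteins recognise sites with an AATC core and are known to repress their own and each other's genes. Scl binds E-box sequences (CANNTG) with a class I partner, and in blood cells it is found in complexes in which Lmo2 and Ldb1 link it to a GATA factor. Enhancers bound by Scl have been described upstream of Gfi1 and downstream of Gfi1b.

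In both samples Scl chromatin was enriched at a pair of neighbouring regions downstream of Gfi1b and at a single, stronger region upstream of Gfi1. The Gfi1b regions lay 22.5 and 23.7 kb downstream of the gene start, farther than the 12533 bp that the gene spans in RefSeq (GRCm38.p6). The Gfi1 region lay 33.5 kb upstream of its start. Over the genome 0.0472% of the 200 bp windows with a read passed the calling rule in sample 1, and 0.0262% in sample 2. These 3 regions carry the finding, so the sequence under them is shown first. It was built from sample 2 reads, which cover these bases, and is given on the plus strand of mm8. Capitals mark 2 motifs: the E-box, and the GATA motif on either strand (NGATAN with A or T first and A or G last). A single read covers 40 of the 120 bases shown at Gfi1b +22.5 kb and 20 of 300 at Gfi1 -33.5 kb. At Gfi1b +23.7 kb this holds for 45 of 122 bases in the left part and 27 of 67 in the right part. Both genes lie on the minus strand. A second read stretch of Gfi1b +22.5 kb, the 67 bases of chr2:28421301-28421367, is not shown and held no match to the motifs described below.
Gfi1b +22.5 kb, chr2:28421421-28421540: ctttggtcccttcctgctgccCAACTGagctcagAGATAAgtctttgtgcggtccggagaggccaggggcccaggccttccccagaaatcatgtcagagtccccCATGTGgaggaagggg
Gfi1b +23.7 kb, left part, chr2:28420142-28420263: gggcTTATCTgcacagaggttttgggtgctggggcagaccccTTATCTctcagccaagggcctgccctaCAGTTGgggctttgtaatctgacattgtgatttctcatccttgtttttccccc
Gfi1b +23.7 kb, right part, chr2:28420302-28420368: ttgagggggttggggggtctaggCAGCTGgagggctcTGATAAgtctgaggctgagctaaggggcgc
Gfi1 -33.5 kb, chr5:107999501-107999800: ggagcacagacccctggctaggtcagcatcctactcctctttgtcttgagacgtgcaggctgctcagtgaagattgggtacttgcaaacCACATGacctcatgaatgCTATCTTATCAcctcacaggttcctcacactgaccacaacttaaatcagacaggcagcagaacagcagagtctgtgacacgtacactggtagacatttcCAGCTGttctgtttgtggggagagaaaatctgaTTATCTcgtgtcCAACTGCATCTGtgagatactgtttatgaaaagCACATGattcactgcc

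Each Gfi1b region had an E-box with a GATA motif shortly after it on the plus strand. At +22.5 kb the pair was CAACTG and AGATAA, 7 bp apart and close to the summit. At +23.7 kb it was CAGCTG and TGATAA, 8 bp apart and 75 bp from the summit. The summit is the middle of the 200 bp window with the most reads in sample 2. An E-box and a GATA motif 7 to 9 bp apart is the arrangement described for Scl complexes. It was held by 31 of 272 other sample 2 regions read over at least 80% of 201 bp (11.4%) and by 0.437% of 32506 RefSeq promoter windows of that length. Sample 2 had 1004 regions, and the 272 were kept because their own reads covered the sequence, which favours regions with more reads. Gfi1b +22.5 kb itself was read over 68.7%, below the limit set for those other regions.

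The Gfi1 region held 3 GATA motifs within 100 bp of the summit but no E-box and GATA pair at that spacing. Of those 3, AGATAG and TGATAA overlapped by 1 base and lay 42 and 37 bp to the left of the summit, on the minus strand, and AGATAA lay 90 bp to the right. Its E-boxes within 100 bp were CACATG and CAGCTG. A further E-box, CAACTG, began just beyond that distance, in the stretch TTATCTcgtgtcCAACTG. On the minus strand the stretch reads CAGTTG then AGATAA, in the order of the Gfi1b pairs but with fewer than 7 bp between. The absence of a pair at Gfi1 therefore rests on the limits set for spacing and distance. The form CAGCTG was also present at Gfi1b +23.7 kb, and it was held by 26.1% of the other regions and by 3568 of the 32506 promoter windows. GATA motifs were held by 67.6% of the other regions and E-boxes by 70.2%, so single matches are common in such sequence.

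The sequence AAATCA, which contains the AATC core recognised by Gfi1 and Gfi1b, lay within 100 bp of the summit, on one strand or the other, in all 3 regions called in both samples. It began 56 bp to the right of the summit at Gfi1b +22.5 kb, 12 bp to the left at Gfi1b +23.7 kb and at the summit itself at Gfi1 -33.5 kb. It was held by 25 of the 272 other regions (9.19%) and by 9.69% of promoter windows. A match is a description of letters, and binding of Gfi1 or Gfi1b was not measured.

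Cores of other blood factor families, also searched on both strands, were unevenly placed. ETS cores (NGGAAN with A or C first and A or G last) were matched at 2 positions of Gfi1b +22.5 kb and at none of the bases read in the other 2 regions, against 67.6% of the other regions with a match. RUNX cores (TGNGGT with T or C in the middle) were matched at 1 position of Gfi1b +22.5 kb and 2 of Gfi1 -33.5 kb, 1 of which overlapped the E-box CACATG, against 29.8% of the other regions. Reads covered 138 of 201 bases at Gfi1b +22.5 kb, 163 at Gfi1b +23.7 kb and 201 at Gfi1 -33.5 kb. An absent match in the Gfi1b regions may therefore lie in bases not read, as the map of motif matches shows.

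**Figure D1:**
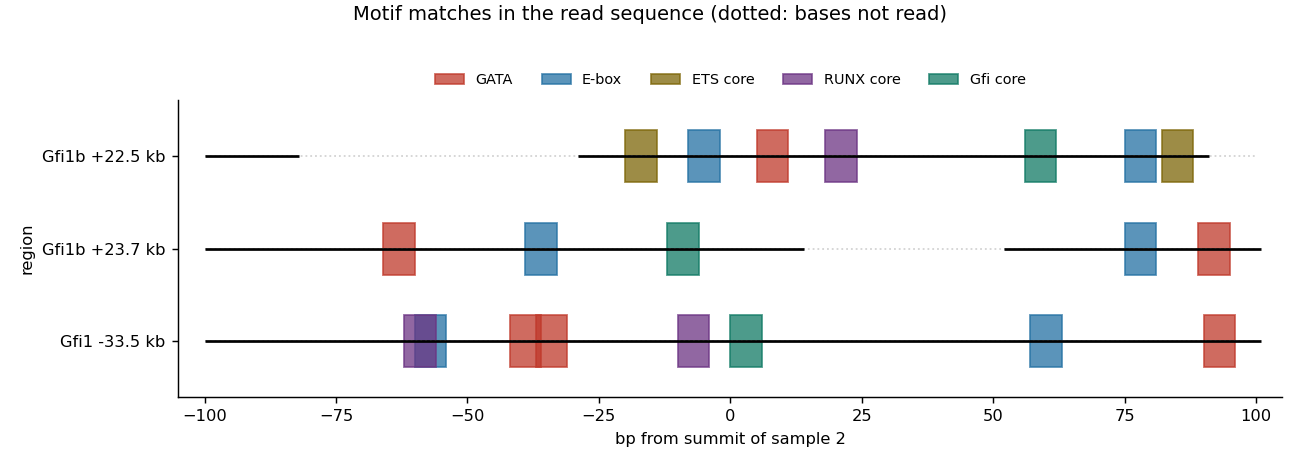
Motif matches (coloured boxes, drawn to scale) by distance in bp from the sample 2 summit for the 3 regions called in both samples. Black lines are bases covered by reads and dotted lines are bases not read; each region holds a Gfi core, an E-box and a GATA motif.

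Positions were tied to the genes through sequence. Of 27025 genes with a RefSeq promoter sequence, 13208 (48.9%) were placed in mm8, by a sample 2 read that lay wholly in a promoter, matched it at every base and had another promoter nearby at a similar shift. Of these, 11310 could also be placed in mm9. Around Gfi1b 15 promoters were matched, all at the same shift from RefSeq, and around Gfi1 19 were matched, with shifts within 1 bp of each other. The Gfi1 start was set from its other start, 1462 bp away and matched by 1 read. No read matched the Gfi1b promoter, so Gfi1b is not one of the 13208, and its start was set from the non-coding gene Gm52548, 2312 bp away inside Gfi1b and matched by 3 reads. Sample 2 was laid over sample 1 at the shift with the most read ends in common, 28 ends at Gfi1b against 8 for the next best and 18 at Gfi1 against 9. In RefSeq order Gfi1b lies between Gm22675 with Gtf3c5 and Tsc1, and Gfi1 lies between 4930428O21Rik and Gm42147 with Evi5. Whether the regions are exonic or intronic in a neighbour was not analysed here, since no annotation of mm8 or mm9 was used.

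Reads were moved by 60 bp towards the fragment centre and counted in windows of 200 bp. Each window was compared with the larger of the genome average, 0.593 reads per window in sample 1 and 0.437 in sample 2, and the surrounding 10 kb. A window passed with at least 5 times that background and an adjusted p under 0.01 (one-sided exact Poisson test, Benjamini-Hochberg over all windows with a read). Merged, the windows that passed made 2859 regions in sample 1 and 1004 in sample 2. In the Gfi1b locus 11 of 1022 windows passed in sample 1 (1.08%) and 5 of 893 in sample 2 (0.560%). In the Gfi1 locus 8 of 923 (0.867%) and 6 of 793 (0.757%) passed, so both loci were above the genome shares of 0.0472% and 0.0262%. Neighbouring windows overlap, and a single passing window in a locus would already exceed these shares. The comparison therefore only restates that regions were called there.

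**Figure D2:**
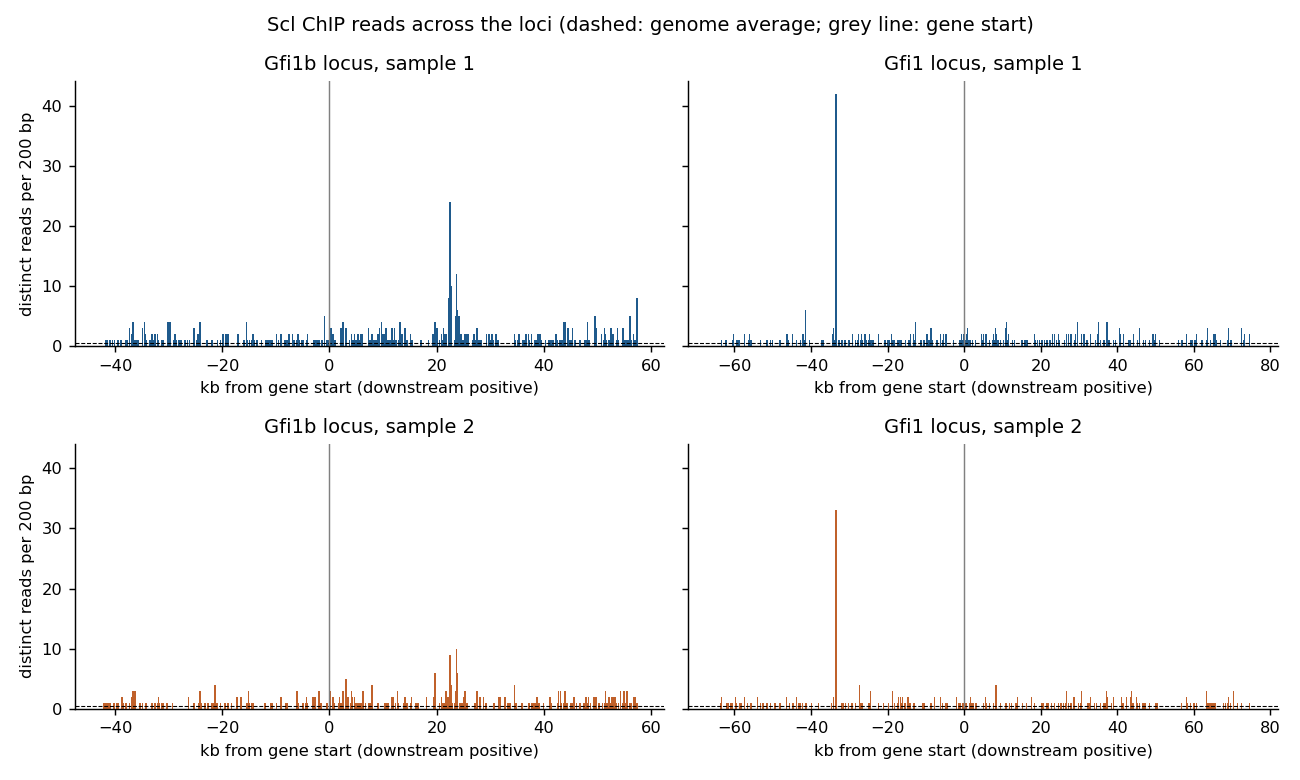
Distinct reads per 200 bp against distance in kb from the gene start, downstream positive, for both loci (columns) and both samples (rows), all on the same vertical scale. The single Gfi1 column reaches 42 reads in sample 1 and 33 in sample 2, above the pair of columns downstream of Gfi1b.

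The strongest region was the one upstream of Gfi1. In sample 1 it spanned chr5:108188101-108188600 in mm9 with 54 distinct reads, 28 on the plus and 26 on the minus strand. In sample 2 it spanned chr5:107999401-107999850 in mm8 with 41 reads. Its best window held 42 reads in sample 1 (exact Poisson 95% interval 30.3 to 56.8), 29.6-fold over the surrounding 10 kb with an adjusted p of 6.51e-41. In sample 2 the best window held 33 reads (22.7 to 46.3), 32.4-fold with an adjusted p of 7.16e-33. The region ranked 25th by fold among all regions of each sample, and 55th and 57th by reads. After the overlay the summits of the samples were 17 bp apart.

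Downstream of Gfi1b the nearer region spanned chr2:28454751-28455250 in mm9 and chr2:28421301-28421550 in mm8. Its best window held 25 reads in sample 1 (exact Poisson 95% interval 16.2 to 36.9) at 11.4-fold, with an adjusted p of 5.23e-14. In sample 2 it held 11 reads (5.49 to 19.7) at 7.97-fold, with an adjusted p of 0.00120. The farther region spanned chr2:28453601-28453950 in mm9 and chr2:28420101-28420400 in mm8. It held 13 reads in the best window of each sample (6.92 to 22.2), at 5.80-fold in sample 1 (adjusted exact p = 0.00241) and 9.29-fold in sample 2 (adjusted p = 2.46e-05). By count alone the nearer region led in sample 1 and the farther one in sample 2, with overlapping intervals in each sample. Summits of both samples lay 11 bp apart at each region. By reads they ranked 166th and 466th of 2859 regions in sample 1, and 367th and 293rd of 1004 in sample 2.

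The Gfi1b pair raises its own background, since each region lies within the 10 kb around the other. Over its whole 500 bp, rather than its best window, Gfi1b +22.5 kb stood 10.2-fold (sample 1) and 4.43-fold (sample 2) above the surrounding 10 kb without the 2 kb around itself. With all called regions of the locus left out of the 10 kb, it was 15.9-fold and 6.39-fold. For the 350 bp of Gfi1b +23.7 kb these folds were 6.37 and 8.13 in the first way and 11.7 and 11.2 in the second. Measured in the second way over 500 bp, the Gfi1 -33.5 kb region was 61.4-fold and 82.9-fold, over flanks that held only 16 and 9 reads. These folds were added after the positions of the regions were known. In the pair, the stricter requirement of 10-fold and an adjusted p under 0.001 kept only +22.5 kb in sample 1 and neither in sample 2, while Gfi1 -33.5 kb passed it in both. Lane 7 alone, with 1635454 distinct reads, gave no call at either Gfi1b region, and lane 8 alone, with 4084113, gave both.

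Strands were compared over read ends within 300 bp of each centre, at their own positions and not moved by 60 bp. At all 3 regions the median minus-strand end lay to the right of the median plus-strand end, by 159.5 and 183 bp at Gfi1b +22.5 kb, by 171 and 174.5 bp at Gfi1b +23.7 kb, and by 196.5 and 155 bp at Gfi1 -33.5 kb, in samples 1 and 2. Counting every read gave 65 and 46 reads at the Gfi1 region in place of 54 and 41. Over the genome 94.8% of sample 1 reads and 96.6% of sample 2 reads were distinct. Repeat reads were thus a larger share at this region than over the genome. Of the read ends at the Gfi1 region, 7 were shared by the samples, against 85 found in either. At the Gfi1b regions 3 of 47 and 1 of 32 were shared.

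**Figure D3:**
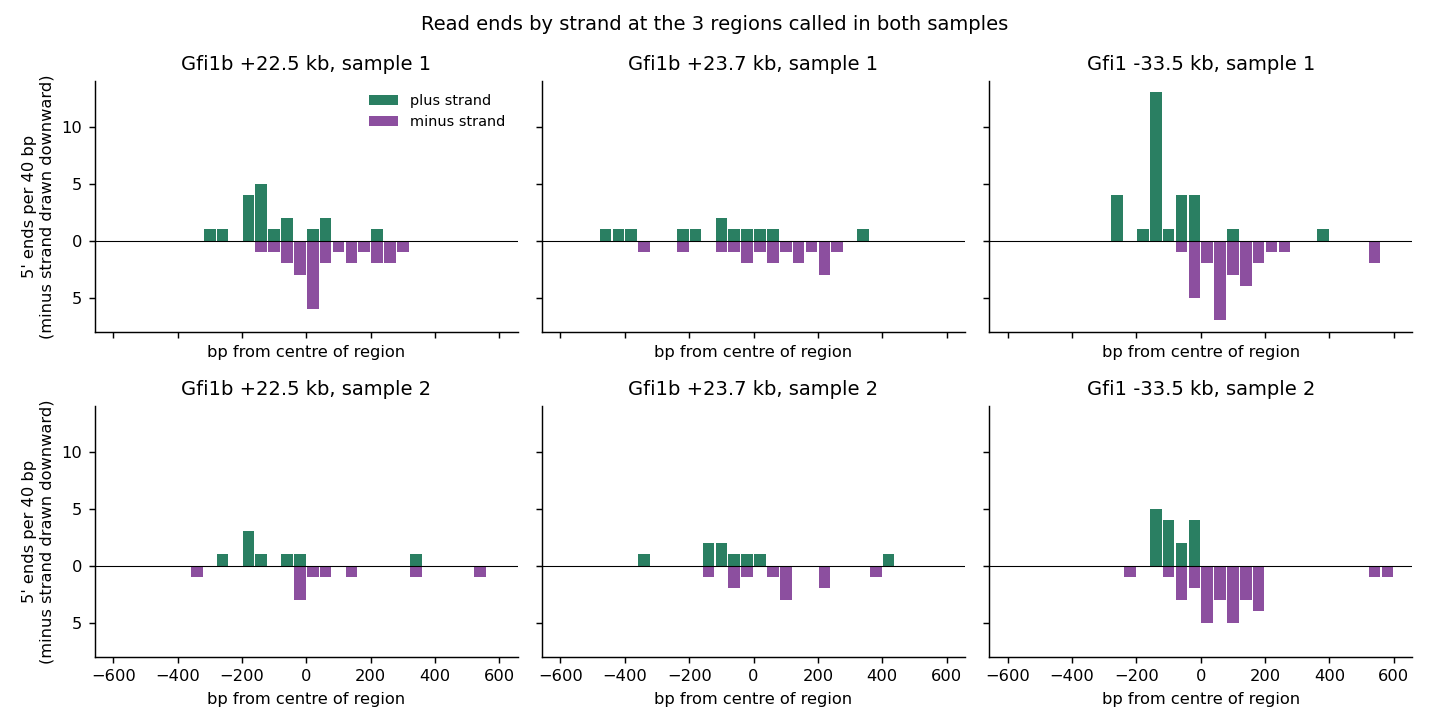
Read ends (5′) per 40 bp by distance in bp from the centre of each region, plus strand drawn upward and minus strand downward, for samples 1 and 2. Plus-strand ends gather to the left and minus-strand ends to the right at each region, with the highest column at Gfi1 -33.5 kb in sample 1.

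A further region was called at Gfi1 in sample 1 only, 41.5 kb upstream of the start (chr5:108196251-108196450 in mm9). It held 7 reads, 4 on the plus and 3 on the minus strand, at 11.8-fold with an adjusted exact Poisson p of 0.00679. In sample 2 the matching span (chr5:108007534-108007733 in mm8) held 1 read. Against the split of all reads, that of 7 to 1 had an exact binomial p of 0.150 (adjusted over 8 comparisons 0.599). The region was chosen by its sample 1 count, and its reads are few. The test therefore cannot show whether the samples agree or differ there. The region was not called in lane 8 alone, in windows of 400 bp, or when empty windows also entered the adjustment.

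Relative to depth, the libraries agree within counting error at Gfi1 -33.5 kb and Gfi1b +23.7 kb. The Gfi1 region took 9.59 reads per 1000000 in sample 1 and 9.88 in sample 2, and the farther Gfi1b region 3.91 and 3.85. The nearer Gfi1b region took 7.10 in sample 1 on this scale (exact Poisson 95% interval 5.07 to 9.67) and 3.13 in sample 2 (1.67 to 5.36). There 75.5% of the reads came from sample 1 against 57.6% of all reads, which had an exact binomial p of 0.00807 and did not pass after adjustment over 8 comparisons (0.0645). The difference in that split between the Gfi1b regions, 40 to 13 against 22 to 16 reads, had a two-sided Fisher's exact p of 0.110. The spans counted at the Gfi1b regions were those called in sample 1, 500 and 350 bp. The sample 2 calls inside them were 250 and 300 bp, so both tests used spans set by sample 1 counts. Between lanes 7 and 8 no region's split passed, with exact binomial p-values from 0.244 to 1 before adjustment.

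**Figure D4:**
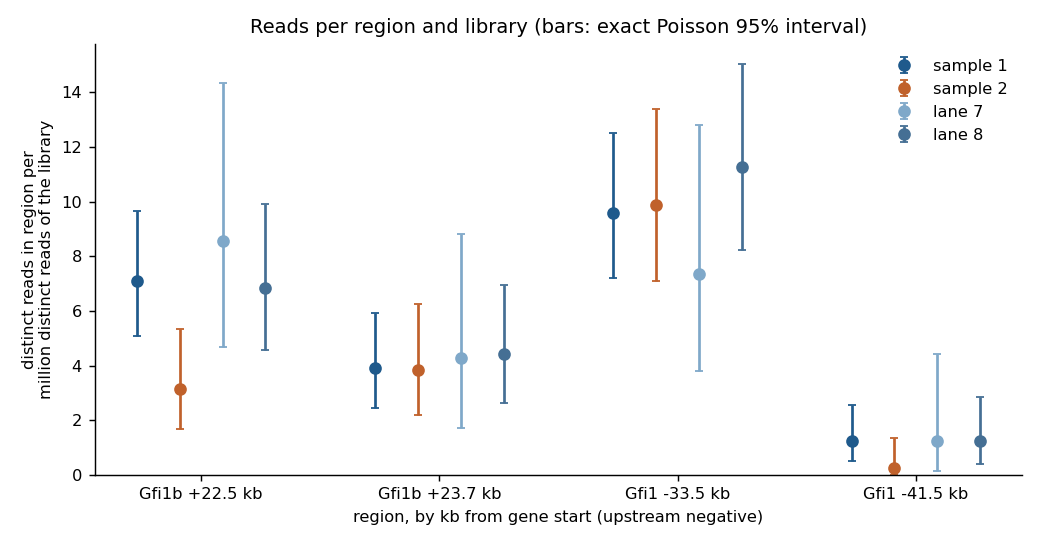
Distinct reads in each region per 1000000 distinct reads of the library, with exact Poisson 95% intervals, for samples 1 and 2 and for lanes 7 and 8 of sample 1. Gfi1 -33.5 kb is near 9.59 and 9.88 in the samples, while at Gfi1b +22.5 kb sample 2 (3.13) lies below sample 1 (7.10).

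Set against each other, the strongest window of the Gfi1 locus held more reads than that of the Gfi1b locus in both samples. With the reads of both samples laid together, the best single window held 75 reads at Gfi1 and 36 at Gfi1b, a ratio of 2.08 (exact binomial 95% interval 1.38 to 3.19, two-sided p = 0.000272). In sample 2 the ratio was 2.54 (1.30 to 5.26, exact binomial p = 0.00453), and in sample 1 it was 1.68 (1.0 to 2.88, exact p = 0.0498). The sample 1 call was lost with windows of 400 bp (ratio 1.41, exact binomial p = 0.137), with reads moved by 75 bp (1.59, p = 0.0722) and in lane 7 alone (1.38, p = 0.648). The windows were chosen by their counts, so these tests describe the chosen windows. Over whole regions, the Gfi1b pair together held 62 reads in sample 1 and 29 in sample 2, beside 54 and 41 for Gfi1 -33.5 kb. The sum over the pair, across 850 bp against 500 bp, was thus above the Gfi1 region in sample 1 and below it in sample 2. Whether these sums differ beyond counting error was not tested.

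The background went the other way. The Gfi1b locus held 4.79 reads per kb in sample 1 against 2.74 at Gfi1, a ratio of 1.75 (exact binomial 95% interval 1.52 to 2.00, two-sided p = 3.25e-16). In sample 2 the densities were 3.47 and 2.07 per kb, a ratio of 1.68 (1.43 to 1.96, exact binomial p = 1.01e-10). With the called regions and 1 kb around them left out the ratios were 1.79 and 1.75. Bins of 10 kb at Gfi1b ran from 0.810 to 3.68 times the genome average in sample 1, and those at Gfi1 from 0.371 to 2.73 times, so single bins of the loci overlap. Reads of sample 2 had 52.3% GC at Gfi1b, 48.1% at Gfi1 and 48.6% over the genome. The part of GC content in the difference was not tested. Over the spanned lengths of chromosomes 2 and 5, sample 1 held 2.38 and 2.30 reads per kb.

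**Figure D5:**
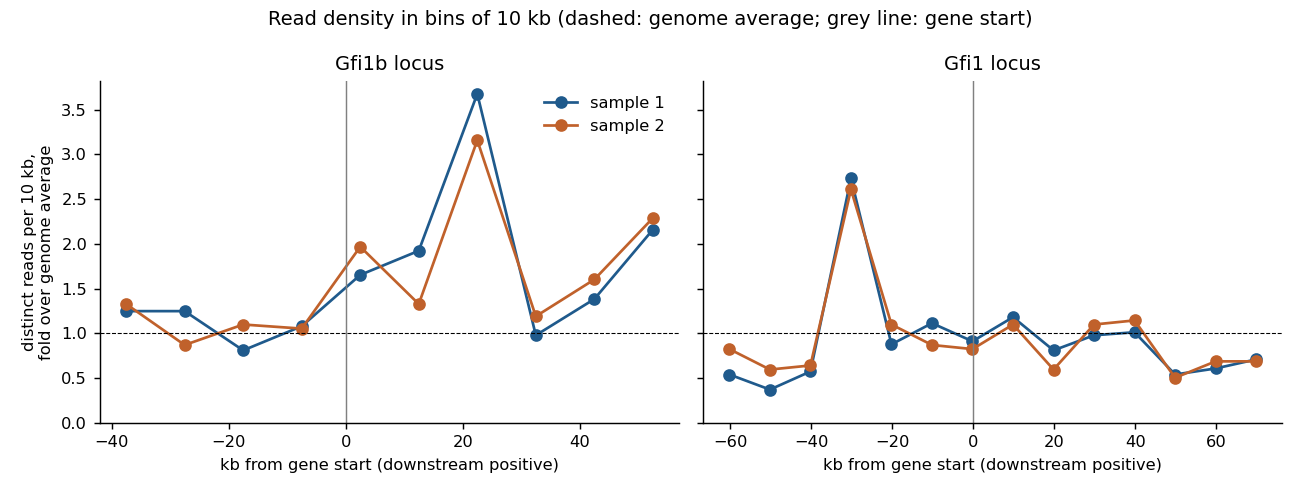
Distinct reads in bins of 10 kb as fold over the genome average, against distance in kb from the gene start, for both loci and samples. In sample 1 the bin with both Gfi1b regions stands highest at 3.68 and that with Gfi1 -33.5 kb at 2.73, while the bin with Gfi1 -41.5 kb is at 0.573, and the bins downstream of the Gfi1b start mostly lie above 1.

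The gene starts themselves were not called. Within 500 bp of the Gfi1b start there were 5 reads in sample 1 and 3 in sample 2, and at the Gfi1 start 7 and 3, where the genome average gives 2.97 and 2.19. The exact Poisson 95% intervals, 1.62 to 11.7 for 5 reads, 2.81 to 14.4 for 7 and 0.619 to 8.77 for 3, include the average in each case. Enrichment over that average was thus not detectable at the starts at this depth. For 7 reads the lower limit lay just below the average, which rests on the effective genome of 1.9e9 bp. By spanned length, chromosome 5 held 2.30 reads per kb in sample 1, below that limit. The result for the Gfi1 start in sample 1 therefore depends on the average used.

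Outside the called regions, windows with at least 4 reads formed 17 clusters at Gfi1b in sample 1 and 10 in sample 2, and 6 and 4 at Gfi1. Over the genome 3.8% of windows with a read held 4 or more in sample 1 and 1.52% in sample 2. Without the regions and 1 kb around them the shares were 5.91% and 2.17% at Gfi1b, and 1.60% and 0.527% at Gfi1. At Gfi1b 2 clusters lay at matching positions in both samples. One lay 19.7 kb downstream of the start, with 4 reads in the best window of sample 1 and 6 in sample 2, at 2.00-fold and 4.62-fold over the surrounding 10 kb. It did not pass in either sample (adjusted exact Poisson p = 0.611 and 0.324). The other lay 24.2 kb upstream with 5 and 4 reads. At Gfi1 a cluster of 4 reads in each sample recurred near 8.2 kb downstream. The uncalled window with the most reads was 57.3 kb downstream of the Gfi1b start, with 8 reads in sample 1 at 6.06-fold (adjusted exact Poisson p = 0.0543) and 2 reads in that span of sample 2. Its cluster began at the edge of the locus. The cluster with the lowest adjusted p lay 49.6 kb downstream of the Gfi1b start. Its best window held 7 reads in sample 1 at 7.61-fold (adjusted exact Poisson p = 0.0417), with 2 reads in the span of the cluster in sample 2.

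Both genes had a called region within 50 kb of the start in each sample. Of the genes placed by their own promoter, 1781 of 11310 (15.7%) had one in sample 1, where the place in mm9 was needed, and 801 of 13208 (6.06%) had one in sample 2. Among 12 blood transcription factors and cofactors linked to Scl, 5 could be placed, and 4 of them (Tal1, Lyl1, Erg and Cbfa2t3) had such a region in both samples. At Tal1, the gene of Scl itself, the best window held 55 and 26 reads 38.1 kb downstream, above the Gfi1 region in sample 1 and below it in sample 2. At Erg, an ETS factor, it held 23 and 14 reads 20 kb downstream, beside 25 and 11 at Gfi1b +22.5 kb. Lyl1, the paralogue of Scl, had 123 and 58 reads near its start, and Cbfa2t3, a corepressor found with Scl, had 69 and 46 reads 20.8 kb upstream, all above both members. Gata2, which encodes a GATA factor of stem cells, had 0 called regions within 50 kb in either sample. Of 8 chromatin partners of Gfi1 and Gfi1b, 2 could be placed: Ehmt2, a histone methyltransferase, had a region of 11 reads in sample 1 and none in sample 2, and Suv39h1 had none. The other 13 genes of these lists were not placed and were not analysed here.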

How the data were processed

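Scl ChIP-seq reads of 2 samples were analysed. The deposited format note gives mm9 for sample 1, aligned with the Solexa software, and mm8 for sample 2, aligned with Eland, without versions. The deposited sample 1 file lists 5938819 reads of 45 bp with an alignment score of 43 to 45. The deposited sample 2 file lists 4296527 uniquely placed reads with sequence, position and, per read, a count of genome matches at 0, 1 and 2 errors. Whether sample 1 reads are all unique is not stated.

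Repeat reads of 1 start and strand were reduced to 1 on chromosomes 1 to 19, X and Y. The plus to minus distance with the most read pairs was 120 bp in both samples. Windows had steps of 50 bp and an effective genome of 1.9e9 bp; windows within 200 bp were merged, and each region needed 20% of its reads on each strand. Bases that Eland lists as substitutions were set to the genome base it gives, which matched error-free reads at 99.8% (forward) and 99.1% (reverse) of positions compared. Python 3.11.15, numpy 2.4.6, pandas 2.3.3, scipy 1.17.1 and matplotlib 3.10.9 were used. Every called region of the loci is named. Uncalled windows of at least 4 reads are named where they recur, hold the most reads or have the lowest adjusted p. The members, lists and tests were chosen with earlier results of these data known. Reads with several or no matches and of low quality were not used.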

Additional observations from a re-analysis of the deposited data

How the results depend on the processing

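Over the genome, samples 1 and 2 gave 2859 and 1004 regions, 25514 and 5422 against the genome average alone, 1042 and 563 at 10-fold and adjusted p under 0.001, and 8450 and 2349 at 3-fold and adjusted p under 0.05. Sample 1 gave 5641 with all reads counted, 411 in lane 7 alone, 1195 in lane 8 alone and 1609 when empty windows entered the adjustment, an alternative chosen after seeing the data. At Gfi1b sample 1 had 4 regions in place of 2 against the genome average and 3 at 3-fold and adjusted p under 0.05. It had 1 under the stricter requirement and 0 in lane 7. Sample 2 had 0 under the stricter requirement and 1 with windows of 400 bp. At Gfi1 sample 1 fell from 2 regions to 1 with windows of 400 bp, the stricter requirement, either lane alone and the wider adjustment, each time losing -41.5 kb. Gfi1 -33.5 kb was called under every setting run, in both samples and in lanes 7 and 8 alone. The ratio of the strongest windows, Gfi1 over Gfi1b, was 2.08 over both samples and from 1.68 to 2.54 without either one; in sample 1 it lost its call with windows of 400 bp (1.41), reads moved by 75 bp (1.59) and lane 7 alone (1.38). The ratio of densities kept its direction and call throughout, also without the called regions, another alternative added after seeing the data. With 10 kb in place of 50 kb around the starts, 3.87% and 1.41% of placed genes had a region. Within 50 bp of the summit 1 of 4 GATA and E-box matches was left at Gfi1b +23.7 kb and 2 of 5 at Gfi1 -33.5 kb. No paired analysis was possible because all samples are of 1 group. Depth limits windows of few reads and the sequence read at the Gfi1b regions. The fewest reads in a named call were 7, at Gfi1 -41.5 kb, while windows of 7 and 8 reads at Gfi1b were not called in sample 1.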
